A study of Mus musculus with 6 samples.

Results

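The genes described here encode the proteins of the cytosolic ribosome. A gene was taken as a member when the array's annotation gave its probe set a single symbol that begins with Rpl or Rps and a number, or is Rplp0, Rplp1, Rplp2 or Rpsa; kinases of ribosomal protein S6, Rps19bp1 and pseudogene symbols were left out. This gave 49 genes of 18193 named on the array, 26 of the large and 23 of the small subunit, measured by 105 probe sets. Where a gene had several, the one with the highest mean over the arrays stood for it. The samples were R1 mouse embryonic stem cells transduced with a lentivirus and sorted for GFP; the luciferase short hairpin RNA (shRNA) group is the control, with 3 Affymetrix mouse genome arrays, and the other 3 arrays are of cells with shRNA1 against KIAA1718. Both groups therefore share the line, the vector type and the sort, and each carries 1 hairpin, so effects of the hairpin's sequence and of its target cannot be told apart. KIAA1718 is the protein of Kdm7a, a demethylase of histone H3. Whether replicates came from separate infections or cultures is not given in the sources used here, so p-values speak only of the spread among these arrays, and that spread may be technical.

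A cytosolic ribosome has a small subunit, which binds the mRNA and reads its codons, and a large subunit, which joins the amino acids and holds the tunnel through which the new protein leaves. Each ribosome holds a copy of nearly every ribosomal protein, so their genes are among the most active of a growing cell. Their mRNAs begin with a terminal oligopyrimidine (TOP) tract, a C followed by further C or T bases, through which the TOR kinase pathway and the RNA-binding protein Larp1 control their translation. The mouse genome also holds many processed pseudogenes of these genes, whose sequences resemble the mRNAs; the RefSeq table lists 321 ribosomal protein symbols with the pseudogene ending.

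The tract was looked for in RefSeq promoter entries (GRCm38.p6, 250 bases before to 50 after an annotated start), which exist for 43 of the 49 genes. A run of at least 5 pyrimidines that begins with C and touches the 5 bases on either side of the start stood in 25 of 51 member promoters, 49.0%, against 23.7% of all 32851 promoters. The windows below reach from 15 bases before to 15 after the annotated start, with that run in capitals. They are shown for genes at the ends of the differences described later (Rpl27a, Rpl7l1, Rpl22l1, Rps24, Rplp2 and Rpl11), for Rpl7a with its long run, and for Rps6, the substrate of the S6 kinases.
Rpl27a, chr7:109519180-109519209, plus strand: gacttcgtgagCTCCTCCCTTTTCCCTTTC
Rpl7l1, chr17:46782642-46782671, minus strand: gtgaggctgcgcaagcgcagtagctgaagc
Rpl22l1, chr3:28805493-28805522, plus strand: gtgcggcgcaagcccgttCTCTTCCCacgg
Rps24, chr14:24490663-24490692, plus strand: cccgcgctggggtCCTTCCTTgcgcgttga
Rplp2, chr7:141447636-141447665, plus strand: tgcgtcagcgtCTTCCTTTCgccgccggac
Rpl11, chr4:136053379-136053408, minus strand: ctgacccataaggccacggggccggaagtc
Rpl7a, chr2:26910792-26910821, plus strand: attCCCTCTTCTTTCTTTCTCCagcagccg
Rps6, chr4:86857353-86857382, minus strand: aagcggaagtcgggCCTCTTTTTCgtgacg
The run of Rpl27a is 20 bases long and passes the end of its window, and that of Rpl7a is 19 bases long. No run touched the listed starts of Rpl7l1 and Rpl11, which says only that these letters are not in this window. Rps24 has another listed start, with the window chr14:24490738-24490767, and no run touched that one. CCGGAAG, the core of sites for ETS transcription factors, was found on either strand in 21 of 51 member promoters, 41.2%, against 8.86% of all. GGGCGG, the core of Sp1 sites, was in 27, 52.9% against 35.7%, and TATAAA in 6, 11.8% against 13.6%. The 49 genes lie on 17 chromosomes, with at most 7 on any one.

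Over the arrays, median deposited signals ran from 9.58 to 13.3, which were brought to a common scale by quantile normalization; signals below are normalized signals unless called deposited, and differences are log2(signal + 16), KIAA1718 shRNA1 minus luciferase. Correlations between arrays were 0.983 to 0.989 within groups and 0.977 to 0.985 between them. The targeted gene Kdm7a had 38.2 ± 1.12 in controls and 31.8 ± 9.69 with KIAA1718 shRNA1 (SD, n = 3), a difference of -0.20 (limma adjusted p = 0.534), so it gives no check of the labels. All 13 measured embryonic stem cell markers had a mean deposited signal of at least 20, Pou5f1 among them at a normalized 1140 ± 106 in controls and 1022 ± 83.9 with KIAA1718 shRNA1 (SD, n = 3), and 2 of the 13 fell, Fgf4 by 0.72 and Utf1 by 0.44 (limma), against 2.17% of all genes lower. Under 16 alternative settings of the processing Fgf4 kept its call in 15 and Utf1 in 7, with Utf1 at -0.52 to -0.14. With replicate number as a block 4 of the 13 passed, against 7.9% of all genes. Nanog (-0.42) and Dnmt3l (0.52, the one that was higher) were called there besides Fgf4 and Utf1 (limma adjusted p = 0.0488 and 0.0133). Differences were below 0 in 11 of the 13. The mean normalized log2 signal of these markers was 9.98 to 10.01 on control arrays and 9.77 to 9.92 on the others, with no overlap. Of 30 fibroblast markers 4 lay under 20; their summed deposited signal was 8315 to 17279 on control arrays and 8401 to 13096 on KIAA1718 shRNA1 arrays, and 1 of the 30, Pdgfra, was lower past the threshold (13 with replicate number as a block, where 3.83% of all genes were lower). Their differences were below 0 in 28 of 30, and their mean normalized log2 signal was 7.27 to 8.03 on control arrays and 7.16 to 7.55 on the others. Pdgfra itself lay under 20, at a mean deposited signal of 14.1, and kept its call in 8 of 15 alternative settings of the processing. Of 17 primitive endoderm markers 6 were lower, Srgn, Sox7, Lamc1 and again Pdgfra among them, and 7 lay under 20; their summed deposited signal was 2055 to 3269 and 2127 to 2452. Differences were below 0 in 16 of these 17, and their mean normalized log2 signal was 6.38 to 6.54 on control arrays and 6.02 to 6.09 on the others, with no overlap. Taken singly, 13.4% of all tested genes were lower with no overlap between the groups. The part of such cells in the ribosomal protein values was not tested, and in bulk RNA fewer cells of a type and less RNA per cell cannot be told apart.

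Ribosomal protein genes stood at the top of the array. They were 13 of the 20 brightest genes, 29 of the 50 brightest and 34 of the 100 brightest by mean deposited signal. The brightest of all genes was Rps29, a zinc-binding protein of the small subunit, at a mean deposited signal of 4697; the next members were Rpl38 at 4514, Rps3a1 at 4247, Rpl7a at 4181 and Rpl13a at 4072. In all, 35 of the 49 had a mean deposited signal of 2000 or more. The other 14 reached down to Rpl3l, at a mean deposited signal of 4.95, and Rps16, whose signals were 0.136 to 0.596. Signal is not per length and probe sets differ in efficiency, so this order is one of probe sets, not of mRNA abundance. Rps29 had the highest normalized value of any probe set on all 3 control arrays, where the quantile step gives them the same number, 4893; its SD of 0 there is a product of that step.

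**Figure D1:**
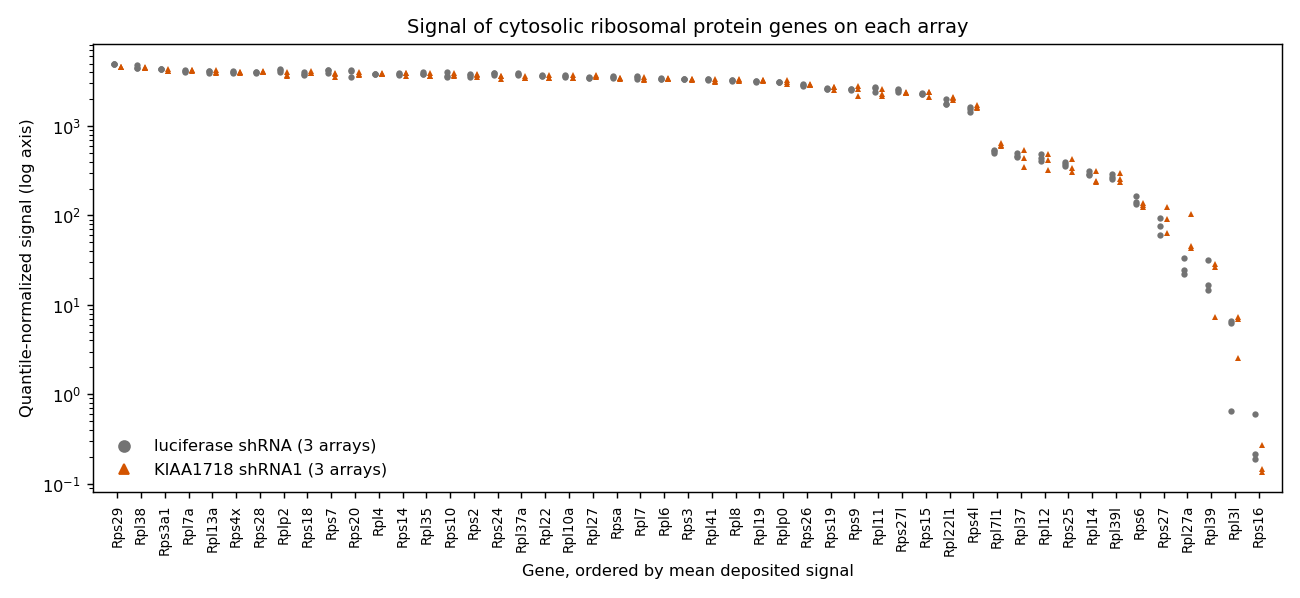
Quantile-normalized signal (log axis) of the 49 ribosomal protein genes on each array, ordered by mean deposited signal; grey circles are the 3 luciferase shRNA arrays and orange triangles the 3 KIAA1718 shRNA1 arrays. The 35 brightest genes form a plateau above 2000 where both groups lie close together, and the spread between arrays widens below 100.

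The members' share of the array's signal was compared first. Their deposited signals summed to 4.87%, 4.96% and 4.45% of the signal of all genes on control replicates 1, 2 and 3. On KIAA1718 shRNA1 replicates 1, 2 and 3 the sums were 4.65%, 4.49% and 4.56%. The groups overlapped, since control replicate 3 was the lowest of the 6 arrays. The means were 4.76 ± 0.273% and 4.57 ± 0.0768% (SD, n = 3). Large-subunit genes made up 2.36 ± 0.141% and 2.28 ± 0.0289%, and small-subunit genes 2.39 ± 0.133% and 2.29 ± 0.0503%.

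No ribosomal protein gene passed the threshold. Of 49 genes, 47 had enough signal to be tested, and 0 of them had an adjusted p under 0.05 in limma, against 4.84% of all 12740 genes and 1.88% of the 160 genes with a mean deposited signal of 2000 or more. Those 160 include 35 of the members, and of the 125 others 2 passed as higher and 1 as lower. At an unadjusted p under 0.05 there were 6 of 47, namely Rpl27a, Rpl7l1, Rps29, Rps7, Rpl37a and Rplp2, where all genes gave 22%. The median difference was -0.024, with 17 members above 0 and 30 below, and the median of all genes was 0.00023. The large subunit had a median of -0.024 over 25 tested genes and the small subunit -0.023 over 22. With replicate number as a block, 1 member was called, Rpl27a, against 7.9% of all genes; without any 1 array none was.

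The differences were also narrow in the main fit. For 34 of 47 members the whole 95% interval lay between -0.25 and 0.25, and for 44 between -0.5 and 0.5. The 34 depended on the processing. It became 14 when the variance was modelled without a trend on signal, 12 without scaling between arrays and 0 with each array scaled to its median. Among the 35 members with a mean deposited signal of 2000 or more, the main fit's interval lay between -0.25 and 0.25 for 33, 94.3%. Among 125 other genes past that signal limit it did so for 84, 67.2%, and among all genes for 4.26%. The bright sets are not matched in brightness, since members were 29 of the 50 brightest genes, and the fitted variance follows signal. The median SE of members was 0.0514, against 0.0602 for those other bright genes and 0.133 for all genes. Only Rpl27a among the 47 differed by more than 0.25 in either direction. Groups did not overlap for 4 members that were higher, Rpl27a, Rpl7l1, Rpl27 and Rpl19, against 14.5% of all genes, and for 6 that were lower, Rps3, Rpsa, Rps29, Rps24, Rpl37a and Rplp2, against 13.4%. The shared control value of Rps29 comes from the quantile step. Its deposited signals overlapped, at 4684, 4352 and 4895 on control arrays against 4798, 4428 and 5026 on KIAA1718 shRNA1 arrays.

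**Figure D2:**
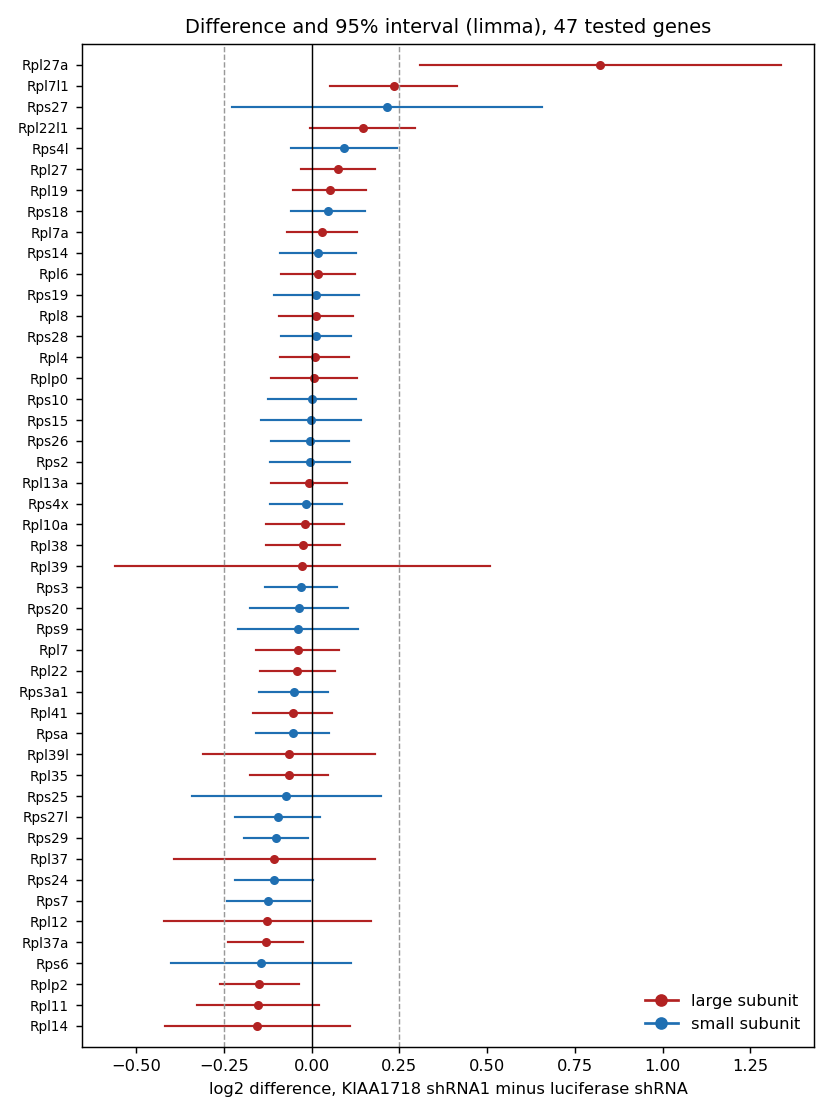
Log2 difference (point) and 95% interval (line) of each of the 47 tested genes in limma, KIAA1718 shRNA1 minus luciferase shRNA, red for the large and blue for the small subunit; dashed lines mark -0.25 and 0.25. Intervals of 34 genes lie between the dashed lines in this main fit, and the widest belong to dim probe sets such as those of Rpl27a, Rpl39 and Rps27.

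The scaling moved the medians of members and of all genes in the same direction, and that of members further with median scaling. Without scaling between arrays 40 of 47 members lay above 0, with a median of 0.075 where that of all genes was 0.11. With each array scaled to its median signal 43 lay below 0, with a median of -0.11 where that of all genes was -0.033. Because members fill the top of the array, the quantile curve was also taken from the other probe sets alone; 34 members then lay below 0, with a median of -0.033. Relative to all genes the members' median was thus -0.024, -0.031, -0.080 and -0.033 under quantile, no, median and other-gene quantile scaling. Set against the median of all genes, 30, 35, 42 and 34 of the 47 members lay below it in that order. In all 4 scalings 29 members lay below that median, among them Rpl11, Rpl14, Rpl37a, Rplp2, Rps24, Rps6 and Rps7. Another 5 lay above it in all 4, namely Rpl27a, Rpl7l1, Rps27, Rpl22l1 and Rps4l, and for 13 the side differed.

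**Figure D3:**
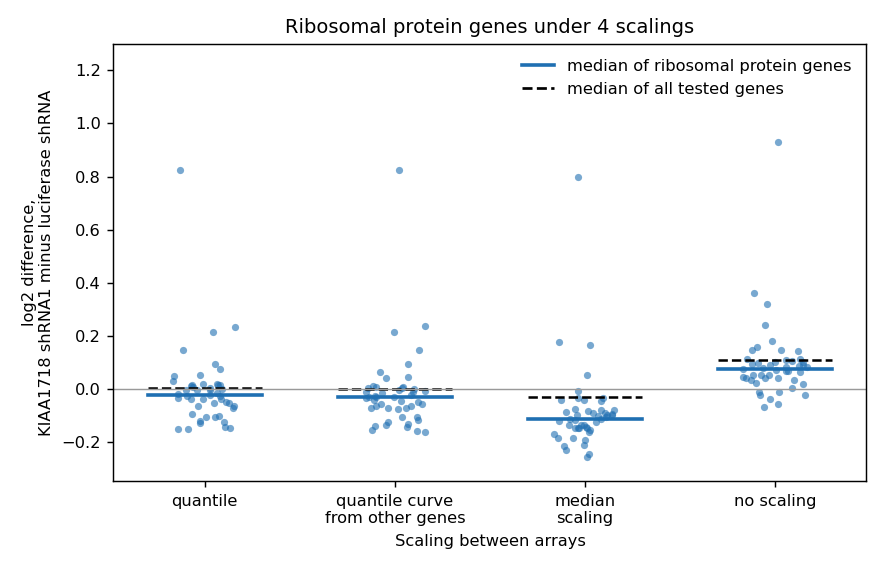
Log2 differences of the 47 tested ribosomal protein genes (points) under 4 scalings between arrays, with their median (blue line) and the median of all tested genes (dashed black line). The blue line lies below the dashed line in each of the 4, at 0.075 without scaling and at -0.11 with median scaling.

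Among small-subunit genes the furthest below 0 were Rps6, Rps7 and Rps24. Rps7 is a protein of the subunit's body; its signals were 4197, 3915 and 4197 on control replicates 1 to 3, and 3569, 3936 and 3792 on KIAA1718 shRNA1 replicates 1 to 3. The ranges overlapped through control replicate 2 and KIAA1718 shRNA1 replicate 2, and the difference was -0.12 ± 0.054 (SE, limma adjusted p = 0.242). Rps24, one of the genes mutated in Diamond-Blackfan anaemia, had 3878, 3900.2 and 3766 against 3665, 3658 and 3391. All control arrays were higher, by a difference of -0.11 ± 0.051 (limma adjusted p = 0.277). This was the smallest difference among its 5 tested probe sets, which ran to -0.33. One of them, at -0.18, had the lowest limma adjusted p of all member probe sets, 0.0768, and the mean of its probe sets gave -0.22 (limma adjusted p = 0.0601). Rps29 had 4893 on each control array and 4610.4, 4528 and 4528 on the others, a difference of -0.10 (limma adjusted p = 0.209). Relative to all genes it was -0.074 without scaling and -0.12 with median scaling. Rps6, whose protein the S6 kinases phosphorylate, was read by a dim probe set: 163, 142 and 133 against 131, 137 and 123. The groups overlapped and the difference was -0.14 ± 0.12 (limma adjusted p = 0.559).

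Other small-subunit genes lay nearer to 0. Rpsa, which also serves as a laminin receptor, had 3486, 3545 and 3601 against 3472, 3428 and 3338, with no overlap. Its difference was -0.055 (limma adjusted p = 0.590), and relative to all genes it was -0.067 without scaling. Rps3a1 had 4374, 4291 and 4374 against 4127, 4329 and 4127, a difference of -0.051 (limma adjusted p = 0.594), and relative to all genes -0.055 without scaling. Rps18 differed by 0.047 (limma adjusted p = 0.659), and by -0.074 when its probe sets were averaged. Rps4x, the X-linked form of its protein, had 4024, 4171 and 3936 against 4004, 4045 and 3944. The groups overlapped and the difference was -0.016 with a 95% interval of -0.12 to 0.085.

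Among large-subunit genes Rpl14, Rpl11 and Rplp2 lay furthest below 0. Rpl11, which with Rpl5 and the 5S rRNA can bind the p53 ligase Mdm2, had 2397, 2730 and 2690 on control replicates 1 to 3 and 2627, 2154 and 2257 on the others. Control replicate 1 fell inside the range of the KIAA1718 shRNA1 arrays, and the difference was -0.15 ± 0.080 (SE, limma adjusted p = 0.333). Rpl37a, a zinc-binding protein, had 3725, 3806 and 3874 against 3408, 3408 and 3594, with no overlap and a difference of -0.13 ± 0.049 (limma adjusted p = 0.168). The dimmer Rpl14 had 313, 292 and 281 against 244, 315 and 238, where KIAA1718 shRNA1 replicate 2 was the highest of all arrays. Its difference was -0.15 ± 0.12 (limma adjusted p = 0.543). Rpl12, also dim, differed by -0.13 (limma adjusted p = 0.679).

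Of the bright large-subunit genes, Rpl27 and Rpl19 were the furthest above 0. Rpl27 had 3524, 3446 and 3418 against 3594, 3766 and 3577, with all KIAA1718 shRNA1 arrays above the controls. The difference of 0.074 ± 0.048 (limma adjusted p = 0.454) was -0.0016 relative to all genes with median scaling. The other Rpl27 probe sets gave 0.17 and 0.18, with all KIAA1718 shRNA1 arrays above the controls in both (limma adjusted p = 0.172 and 0.112). Rpl19 had 3088, 3173 and 3162 against 3264, 3206 and 3293, again with no overlap. Its difference of 0.051 (limma adjusted p = 0.624) was -0.011 relative to all genes with median scaling. Rpl38, needed in the mouse embryo for translation of a set of Hox mRNAs, differed by -0.024, Rpl7a by 0.029 and Rpl13a by -0.0070 (limma adjusted p of 0.785 or higher).

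The stalk of the large subunit, built on Rplp0 with the acidic proteins Rplp1 and Rplp2, recruits the elongation factors. Rplp2 had 4233, 4045 and 4291 on control replicates 1 to 3 and 3641, 3972 and 3718 on the KIAA1718 shRNA1 arrays. All controls were higher, with a difference of -0.15 ± 0.051 (SE, limma adjusted p = 0.139), and -0.19 to -0.12 without 1 array. Relative to all genes it was -0.17 without scaling and -0.22 with median scaling. Rplp0, which binds the rRNA, had 3097, 3070 and 3088 against 2921, 3293 and 3097. The KIAA1718 shRNA1 arrays lay on both sides of the controls, and the difference was 0.0069 with a 95% interval of -0.12 to 0.13. Rplp1 had no probe set of its own and is not analysed here.

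Several ribosomal proteins have a paralog gene, whose product can stand in for the partner or has a role of its own. Rpl7l1, a nucleolar relative of Rpl7 found in precursors of the large subunit, had 504, 522 and 545 on control replicates 1 to 3 and 644, 595 and 617 on the others. All KIAA1718 shRNA1 arrays were higher, by 0.23 ± 0.083 (SE, limma adjusted p = 0.152), while Rpl7 differed by -0.040 (limma adjusted p = 0.748). The other Rpl7l1 probe sets gave 0.096 and 0.011, with overlapping groups in both (limma adjusted p = 0.686 and 0.933). Those of Rpl7 gave -0.021 and -0.17, the latter with all controls higher (limma adjusted p = 0.876 and 0.112). Rpl22l1 had 1777, 1997 and 1775 against 1942, 2135 and 2062. Control replicate 2 lay inside the other group's range, and the difference was 0.15 ± 0.068 (limma adjusted p = 0.279), with Rpl22, which is known to repress Rpl22l1, at -0.041 by its brightest probe set. The other Rpl22 probe sets gave -0.18 and -0.23, with all controls higher in both (limma adjusted p = 0.108 and 0.239). By the brightest probe sets alone, the difference between paralog and partner was 0.27 for the Rpl7 pair and 0.19 for the Rpl22 pair. Each had an exact two-sided permutation p of 0.1 (n = 3), the smallest that 3 against 3 arrays allow. After adjustment over the 5 pairs this permutation p was 0.25.

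In the other pairs no gene passed the threshold. Rps4l differed by 0.092 (limma adjusted p = 0.524), 0.11 above Rps4x (exact permutation p = 0.3). Rps27l, a paralog known to respond to p53, had 2411, 2557 and 2600 against 2411, 2314 and 2344. Control replicate 1 equalled KIAA1718 shRNA1 replicate 1, and the difference was -0.097 (limma adjusted p = 0.384). Rps27 was dim, with 93.9, 60.5 and 76.0 against 91.9, 126 and 63.0, overlapping groups and a difference of 0.21 ± 0.20 (limma adjusted p = 0.625). Rps27l lay 0.31 below Rps27 (exact permutation p = 0.5). Rpl39l, a form found in the male germ line and in embryonic stem cells, differed by -0.064 with a 95% interval of -0.31 to 0.18. Rpl39, a protein of the exit tunnel, was read near the bottom of the scale, at 16.5, 14.6 and 31.6 against 7.40, 28.8 and 26.7. Its difference of -0.026 had an interval of -0.56 to 0.51, the widest among the members tested, and the pair had an exact permutation p of 0.9.

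The member furthest from 0 was Rpl27a, a protein of the large subunit. Its signals were 33.8, 24.4 and 22.4 on control replicates 1 to 3, and 42.9, 103 and 45.3 on the KIAA1718 shRNA1 arrays. All KIAA1718 shRNA1 arrays were higher, and replicate 2 stood well above the rest. The difference was 0.82 ± 0.24 (SE) with a limma adjusted p of 0.0805. It was 0.50 (adjusted p = 0.151) without KIAA1718 shRNA1 replicate 2 and 0.46 with a pseudocount of 64 (limma adjusted p = 0.0969). It passed with replicate number as a block (limma adjusted p = 0.0336) and without scaling (limma adjusted p = 0.0185), in 2 of 16 alternatives. Across the alternatives its difference ran from 0.41 to 1.11.

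Rpl27a belongs to a set of 12 members whose own brightest probe set had a mean deposited signal under 1000. Of these 12, 9 also occur in the annotation of probe sets that list several genes, and there the brightest such probe set had a mean deposited signal of 1870 to 3973. For Rpl27a it had 3482, against 45.6 for the probe set of its own. The probe set of Rps16 gave almost no signal on any array, so its level is not described. Of the 49 chosen probe sets 16 carried the plain ending, 18 ended in _a_at, 2 in _s_at and 13 in _x_at, the mark for probes that can also match other transcripts. With the plain ending alone, 24 members could be tested; none was called, and their median was -0.044.

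Probe sets of one gene were compared next. Of the 105 member probe sets 99 were tested and 0 passed (limma), against 3.67% of all tested probe sets; 18 had an unadjusted p under 0.05, where 18.8% of all probe sets did, and 1 passed once replicate number was a block, where 6.23% of all did. In 15 of 22 genes with several tested probe sets these all had 1 sign, and the median range between them was 0.11. The widest range was that of Rps9, from -0.36 to -0.033, followed by Rpl41, from -0.23 to 0.084; their brightest probe sets had 33.1 and 19.3 times the signal of the dimmest. A further 110 probe sets listed several genes with a ribosomal protein among them. These hold 31 ribosomal protein symbols with no probe set of their own, Rpl5, Rpl10 and Rplp1 among them, so the genes described here are a part of the ribosome. Of the 106 that could be tested 1 was called, higher, with a median of -0.0037 over all; no gene is named from them.

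Deviations by array were small as well. The median deviation of members from their own mean over the 6 arrays was 0.0037, 0.011 and 0.011 on control replicates 1 to 3 and -0.016, 0.026 and -0.022 on the KIAA1718 shRNA1 arrays. The KIAA1718 shRNA1 arrays thus lay on both sides of the controls, with replicate 2 the highest. Of 41 tested members with a promoter entry, the 24 with a pyrimidine run at a start had a median difference of -0.013, with 9 above 0, and the 17 without one had -0.041, with 5 above 0.

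Genes that act with the ribosome were taken from 5 lists. Together 5 of their 127 tested genes passed, 3.94% against 4.84% of all genes, and 21 had an unadjusted p under 0.05, 16.5% against 22%. Of 24 tested translation factors and other genes with TOP mRNAs, 0 passed (limma, 2 at an unadjusted p under 0.05) and the median was 0.00024. Closest was Cct4, a subunit of the chaperonin that folds actin and tubulin, at 0.25 (limma adjusted p = 0.0518, or 0.0316 in the blocked fit), followed by Nap1l1 at 0.19 (limma adjusted p = 0.199). Fau, whose product is cut into a ubiquitin-like protein and a small-subunit protein, had 2025, 1922 and 1989 against 1634, 1770.3 and 1714. All controls were higher, with a difference of -0.21 ± 0.061 (SE, limma adjusted p = 0.0806). Ribosome assembly and rRNA processing had 0 of 55 past the threshold (limma, 7 at an unadjusted p under 0.05) and a median of -0.018, with Tsr1 at 0.26 (limma adjusted p = 0.0885) and Rsl1d1 at 0.23 (limma adjusted p = 0.122) closest.

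Single genes of the remaining lists passed. Of 16 genes of RNA polymerase I, which makes the large rRNA precursor, Znrd1, a subunit, fell; it had 504, 542 and 478 on control replicates 1 to 3 and 389, 374 and 333 on the others, a difference of -0.46 ± 0.097 (SE, limma adjusted p = 0.0263). It kept its call in 7 of 15 alternatives. Cd3eap, another subunit, differed by -0.31 (limma adjusted p = 0.230). In the list of the TOR pathway 3 of 22 rose and none fell, against 2.66% of all genes higher, with a list median of -0.0079. This list also takes in kinases with Rps6k symbols, and Rps6kl1, among the 3 that rose, is one of these. Whether each of these kinases acts in the TOR pathway was not tested. Larp1, which binds TOP mRNAs, had 620, 680 and 620 against 799, 824 and 795, a difference of 0.33 ± 0.079 (limma adjusted p = 0.0451). All KIAA1718 shRNA1 arrays were higher, but the call was kept in only 6 of 16 alternatives and in none without 1 array.

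Ddit4, an inhibitor of TOR induced by stress, had 284, 265 and 232 against 525, 364 and 356, a difference of 0.62 ± 0.14 (SE, limma adjusted p = 0.0398). KIAA1718 shRNA1 replicate 1 was the highest, and the call was kept in 8 of 16 alternatives. Rps6kl1, a kinase named for its likeness to the S6 kinases, had a low signal of 7.54, 15.9 and 11.8 against 35.5, 30.3 and 25.2. It rose by 0.74 ± 0.15 (limma adjusted p = 0.0221), with a call in 10 of 15 alternatives and a size of 0.32 to 1.34 across them. Host genes of small nucleolar RNAs, many of which also carry TOP tracts, had 1 of 10 lower and a median of -0.20. That gene was Snhg6, with 745, 861 and 814 against 569, 633 and 422 and a difference of -0.58 ± 0.13 (limma adjusted p = 0.0345), called in 8 of 15 alternatives. Gas5 had 1078, 1192 and 974 against 776, 928 and 869, all controls higher, at -0.33 (limma adjusted p = 0.0824). With replicate number as a block Snhg6, Gas5 and Snhg4 were lower, against 3.83% of all genes lower in that fit.

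**Figure D4:**
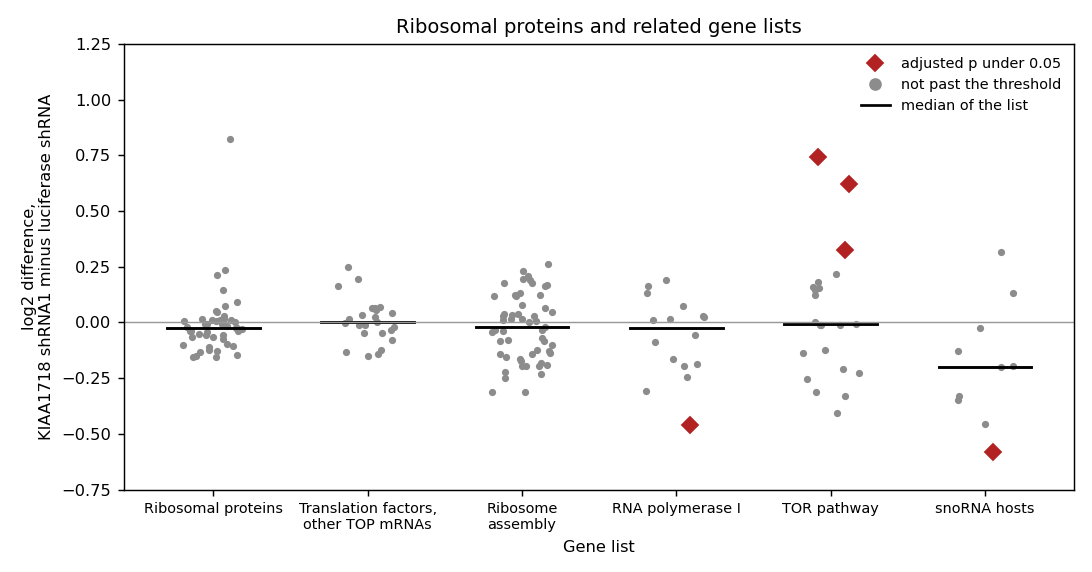
Log2 differences of tested genes (points) in the ribosomal protein genes and 5 related lists, with each list's median (black line); red diamonds passed an adjusted p under 0.05 in limma. The 47 ribosomal protein genes lie close to 0 apart from Rpl27a at 0.82, and the 5 diamonds are Znrd1, Rps6kl1, Ddit4, Larp1 and Snhg6.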

How the data were processed

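Values are the authors' deposited intensity on a linear scale, 1 per probe set and array; GCOS is the software named, per the submitters' processing notes, with version and settings not given in the sources used here. The 64 AFFX controls were left out, the 45037 other probe sets were quantile normalized, log2(signal + 16) was taken, and the 40% with the lowest mean were dropped, leaving 27023. Fold changes on this scale understate changes of dim genes. Groups were compared with limma 3.58.1 in R 4.3.3 (lmFit; eBayes with trend; two-sided tests). Adjustment was by Benjamini-Hochberg over every tested probe set, with a threshold of 0.05; the code was tested on simulated data. The number of arrays limits the precision. Of the probe sets, 34945 had 1 gene symbol and 932 several. The members and lists were chosen with earlier results of these data known. Genes named are those with the 8 largest differences either way, the 5 brightest, the 5 dimmest, stalk and paralog genes, Rpsa, Rps6, Rpl11, Rps4x, Fau, Kdm7a, and in other lists up to 4 past the threshold or the 2 with the smallest p. Rps3, Rps9, Rpl41, Snhg4, Pou5f1, Nanog and Dnmt3l were named after their values were seen.

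Both groups use replicate numbers 1 to 3. After subtracting group means, arrays of equal number had correlations of 0.203, 0.125 and 0.131, and those of unequal number -0.150 to 0.0235. With 3 arrays per group these correlations cannot settle whether the numbers mark pairs. Replicate number was used as a block in an alternative fit, and the main fit leaves the pairing out. No 2 arrays held identical values. Alternatives changed the scaling, pseudocount, filter, probe set, variance model and block, and left out each array. The planned permutation test of the members' share of signal is not given, since it would test a score over chosen genes.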

Additional observations from a re-analysis of the deposited data

How the results depend on the processing

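With replicate number as a block 1 member was called instead of 0, as with median scaling and the block together (1, added after seeing the data) and without scaling (1); in the other alternatives none was. The members' median of -0.024 became 0.075 without scaling, -0.11 with median scaling (0.11 and -0.033 for all genes), -0.044 with plain probe sets alone, and -0.037 to -0.0053 without 1 array. The large subunit's median became 0.080, -0.099 and -0.045 under the first 3 of these and -0.037 to 0.0068 without 1 array, where it was above 0 without KIAA1718 shRNA1 replicate 1 or 3. The small subunit's became 0.072 without scaling, -0.12 with median scaling and -0.038 to -0.018 without 1 array. The difference in the members' share of signal, -0.193 percentage points, ran from -0.348 to -0.0922 without 1 array. It was -0.0284 with plain probe sets alone and -0.220 with probe sets averaged. Of 451 values of 29 named members under the alternatives, 31 had another sign without a call on either side and 2, both of Rpl27a, gained a call. The 616 genes called became 365 without scaling, 197 without the filter, 392 without the intensity trend, 1007 with the block and 168 to 528 without 1 array; 55% of the calls were higher, against 81.6% without scaling and 42.6% with median scaling.

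Among RNA polymerase I genes 0 were called without scaling, without the filter, with plain probe sets and without the trend, and 0 to 1 without 1 array. For snoRNA hosts it was 0 without scaling, filter or trend, 2 with probe sets averaged, 3 with the block and 0 to 2 without 1 array. For translation factors and other TOP mRNAs it was 1 with a pseudocount of 64 and with the block, and 0 to 1 without 1 array. For the TOR pathway, 1 with median scaling, 0 without the filter, 1 without the trend and 0 to 1 without 1 array. The cause of these changes was not tested. Scanner files and detection calls were not used here, so whether the brightest probe sets were near the scanner's limit was not tested.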
